A study of Homo sapiens with 8 samples.

Results

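The genes described here are 10 genes of the Wnt and beta-catenin pathway, whose transcripts were counted by sequencing in HepG2. HepG2 is an established human liver tumour line, which the labels call hepatocellular carcinoma. The genes were chosen by name, not by their values, though with earlier results of these data known. They are CTNNB1, AXIN2, LGR5, NKD1, LEF1, SP5, RNF43, ZNRF3, TBX3 and GLUL. All 10 stood in the deposited table, on 1 row each, among 24462 genes, and 9 of them passed the filter on low counts. The tested cells carried EDN1 overexpression, EDN1 being the gene for the precursor of the vasoconstrictor peptide endothelin-1, and the others were labelled mock, with 4 libraries in each group. Both groups were HepG2 grown in the same serum-containing medium, with no further treatment. The labels give neither the vector, nor whether the cells are 1 clone or a pool, nor whether libraries of a group are separate cultures, and the p-values therefore cover the spread among libraries, which may be technical. The study asked how the transcriptome of the line differs under EDN1 overexpression.

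Beta-catenin, the product of CTNNB1, is held at a low level by a destruction complex that phosphorylates its amino-terminal end and marks it for degradation. Wnt ligands bound to Frizzled and LRP receptors halt that complex, and the beta-catenin that builds up enters the nucleus and switches on target genes together with TCF and LEF factors. HepG2 carries an activating CTNNB1 deletion that removes the phosphorylated stretch, so that part of its beta-catenin escapes degradation without a ligand. In the normal liver the pathway marks the hepatocytes around the central vein, where GLUL is a classical target. The counts used here are tags summed per gene and do not separate the deleted from the intact CTNNB1 transcript.

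Total counts ran from 8571252 to 11686180 in the EDN1 overexpression libraries and from 8409173 to 14932385 in the mock libraries. EDN1 had 2803, 2284, 4764 and 4752 counts in EDN1 overexpression 1 to 4, against 29, 9, 9 and 20 counts in mock 1 to 4, so every library matched its label. Each of 10 hepatocyte markers had over 1 CPM (the count scaled to library size, after TMM correction) on average, and their sum ran from 5447 to 7648 CPM in EDN1 overexpression and from 5983 to 8124 CPM in mock. The summed fibroblast markers were at most 7.49 CPM in EDN1 overexpression and 8.81 CPM in mock, and THY1 had no count. The biliary markers summed to between 564 and 881 CPM in EDN1 overexpression and between 561 and 690 CPM in mock, with KRT7 at most 0.351 CPM; their part in the results was not tested. EDN1 3, EDN1 4 and mock 4 stood apart from the other 5 libraries in earlier results of these data, for which no label gives a reason. They are called the second library set here and the other 5 the first, and values within the sets are given for the members and for some of the pathway genes named.

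The start regions of 5 members were present in the RefSeq promoter table (build GRCh38.p14), as windows of 250 bases before to 50 after a transcription start: CTNNB1, LEF1, SP5, RNF43 and GLUL. RNF43 and GLUL have more than 1 start there, giving 7 windows in all. AXIN2, LGR5, NKD1, ZNRF3 and TBX3 had none. Each window was searched on both strands for CTTTGA and CTTTGT, the core letters that TCF and LEF factors bind, which cannot match at the same position. SP5 is printed because it held CTTTGA 3 times and CTTTGT 1 time, and RNF43 because it was the other member with a match. Capitals mark the matches, and TCAAAG is CTTTGA read on the opposite strand. The SP5 window lies at chr2:170715087-170715386 on the plus strand and the RNF43 window at chr17:58417485-58417784 on the minus strand, both written 5′ to 3′.
SP5: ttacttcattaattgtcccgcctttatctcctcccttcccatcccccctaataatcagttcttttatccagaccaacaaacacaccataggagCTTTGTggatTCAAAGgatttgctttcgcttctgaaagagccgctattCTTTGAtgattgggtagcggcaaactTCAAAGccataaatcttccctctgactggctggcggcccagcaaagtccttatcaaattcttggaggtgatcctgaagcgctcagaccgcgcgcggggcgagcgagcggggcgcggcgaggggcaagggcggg
RNF43: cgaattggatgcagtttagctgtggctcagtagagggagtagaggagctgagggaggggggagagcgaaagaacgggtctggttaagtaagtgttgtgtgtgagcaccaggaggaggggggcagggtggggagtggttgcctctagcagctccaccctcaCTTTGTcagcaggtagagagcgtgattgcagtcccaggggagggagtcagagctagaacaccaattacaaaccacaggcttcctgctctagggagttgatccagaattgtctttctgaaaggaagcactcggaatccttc
The SP5 matches begin 157, 147, 109 and 83 bases before the start site, and the RNF43 match 90 bases before it. The other RNF43 start also had 1 match to CTTTGT, while the windows of CTNNB1, LEF1 and GLUL had neither motif. Of all 35116 windows in the table, 12.9% held CTTTGA at least once, 16.1% held CTTTGT, and 0.0997% held CTTTGA 3 times or more. A match is a description of the letters and not a measured binding site.

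None of the 9 tested members passed the test between EDN1 overexpression and mock. With edgeR's quasi-likelihood F-test and p-values adjusted over 12577 genes by Benjamini-Hochberg, 0.00795% of genes were called, which is EDN1 alone, and the adjusted p of each member was 1 after rounding. At an unadjusted p under 0.05 the count of members was 0, against 2.85% of all tested genes, and it was also 0 by DESeq2 and by limma voom. The libraries of the groups overlapped in all 9, where 2.04% of tested genes had groups that did not overlap, 1.38% with EDN1 overexpression above mock and 0.668% with it below. The log2 fold changes, EDN1 overexpression over mock, ran from -0.28 for SP5 to 0.10 for RNF43, with 6 positive and 3 negative and a median of 0.06, against a median of 0.00 over all tested genes. The 95% interval of each member lay within 2-fold in either direction, and for 6 of the 9 it lay within 1.5-fold. The libraries are bulk RNA, so a lower level in each cell and fewer cells at that level cannot be told apart.

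**Figure D1:**
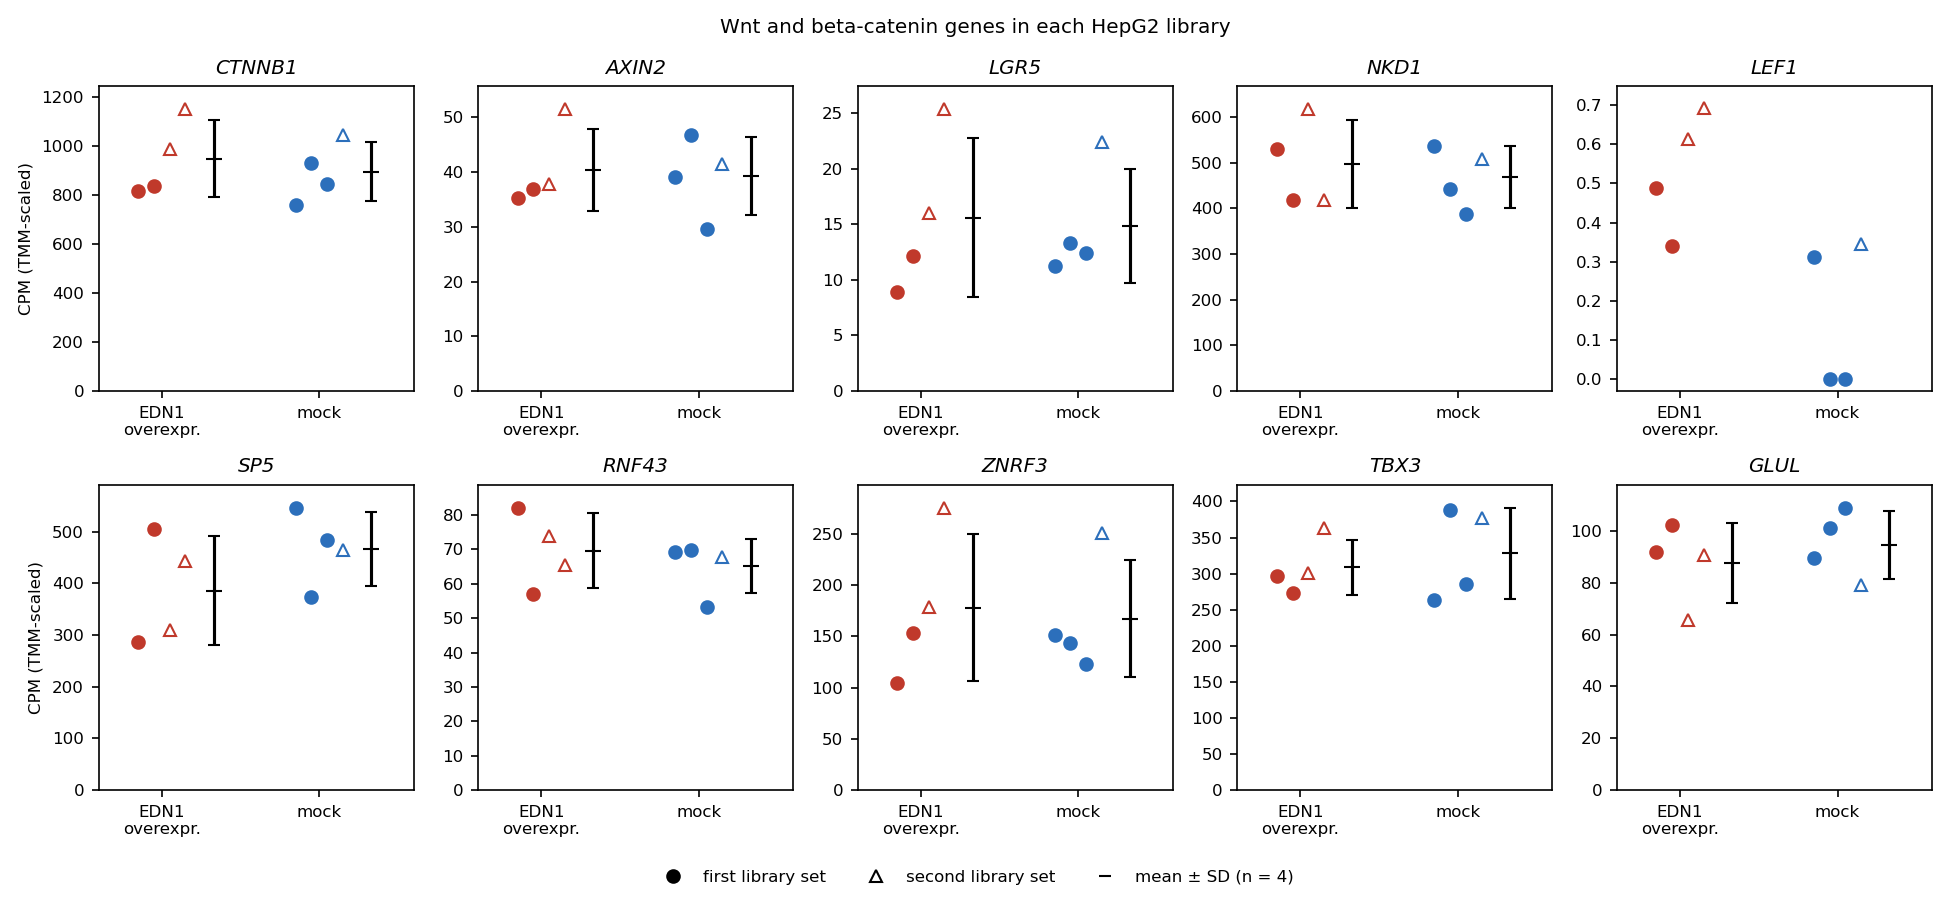
CPM of each of the 10 members (vertical axis, starting at 0 or just below for LEF1) in the 4 EDN1 overexpression libraries (left) and the 4 mock libraries (right), with filled circles for the first library set, open triangles for the second, and the mean ± SD beside each group except for LEF1. The groups overlap in every panel, and the open triangles of CTNNB1, LGR5 and ZNRF3 lie above all filled circles. LGR5 runs from 16.1 to 25.4 CPM in the second set and from 8.87 to 13.3 CPM in the first.

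CTNNB1, the gene for beta-catenin itself, had 818, 835, 988 and 1152 CPM in EDN1 overexpression 1 to 4, against 759, 929, 846 and 1043 CPM in mock 1 to 4. EDN1 4 lay above the mock range and the other EDN1 overexpression libraries inside it. The means were 948 ± 156 CPM in EDN1 overexpression and 894 ± 121 CPM in mock (SD, n = 4 each). On the log2 scale the fold change was 0.08 (SE 0.17, 95% interval from -0.29 to 0.46).

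The target gene AXIN2 encodes a scaffold of the destruction complex and so acts as a feedback inhibitor. It had 35.3, 36.9, 37.9 and 51.6 CPM in EDN1 overexpression 1 to 4, against 39.2, 46.8, 29.7 and 41.5 CPM in mock 1 to 4. EDN1 4 was the highest of the 8 libraries and mock 3 the lowest, and the other EDN1 overexpression libraries sat close together inside the mock range. AXIN2 had a log2 fold change of 0.04 (SE 0.19, 95% interval from -0.37 to 0.45).

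NKD1, another feedback inhibitor, which binds Dishevelled, had 530, 419, 618 and 419 CPM in EDN1 overexpression 1 to 4, against 537, 442, 388 and 508 CPM in mock 1 to 4. EDN1 3 was the highest library and mock 3 the lowest. Its fold change was 0.08 on the log2 scale (SE 0.18, 95% interval from -0.31 to 0.48).

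RNF43 and ZNRF3 encode related membrane ubiquitin ligases that remove Frizzled receptors from the cell surface. RNF43 had 82.2, 57.1, 73.9 and 65.4 CPM in EDN1 overexpression 1 to 4, against 69.1, 69.9, 53.3 and 67.7 CPM in mock 1 to 4. EDN1 1 and EDN1 3 lay above the mock range, and the other EDN1 overexpression libraries inside it. Its log2 fold change was 0.10 (SE 0.16, 95% interval -0.25 to 0.45). ZNRF3 had 105, 153, 179 and 276 CPM in EDN1 overexpression 1 to 4, against 152, 144, 123 and 251 CPM in mock 1 to 4. EDN1 1 lay below the lowest mock library and EDN1 4 above the highest, so the EDN1 overexpression libraries spanned the whole mock range. The log2 fold change of ZNRF3 was 0.09 (SE 0.30, 95% interval -0.58 to 0.76).

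LGR5, a receptor for R-spondins, which counter RNF43 and ZNRF3, had 8.87, 12.1, 16.1 and 25.4 CPM in EDN1 overexpression 1 to 4. It had 11.2, 13.3, 12.4 and 22.4 CPM in mock 1 to 4. As for ZNRF3, EDN1 1 was the lowest library and EDN1 4 the highest, with mock 4 next to it. The log2 fold change was 0.06 (SE 0.33, 95% interval -0.67 to 0.80), the widest interval of the 9. These were also the members that varied most between libraries: over all 8, the coefficient of variation was 37.9% for LGR5 and 35.0% for ZNRF3, against 13.5% for RNF43, 14.4% for CTNNB1 and a median of 22.2% over the tested genes. Counting error alone would give 7.84% for LGR5 and 2.32% for ZNRF3.

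Among the transcription factor genes of the set, SP5 encodes a zinc finger factor that is a direct target in many tissues. Its levels were 286, 506, 309 and 443 CPM in EDN1 overexpression 1 to 4, against 547, 374, 484 and 465 CPM in mock 1 to 4. EDN1 1 and EDN1 3 lay below every mock library, while EDN1 2 and EDN1 4 lay within the mock range. The means were 386 ± 106 CPM in EDN1 overexpression and 468 ± 71.4 CPM in mock (SD, n = 4 each), with a log2 fold change of -0.28 (SE 0.21, 95% interval from -0.74 to 0.19). Its unadjusted p by the edgeR test, 0.216, was the smallest of the 9 tested members. EDN1 1 and EDN1 3 were both below every mock library, with EDN1 2 and EDN1 4 not, in 5.51% of all tested genes, and both above, as RNF43 was, in 5.43%.

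TBX3, a T-box factor gene active in liver tumours with beta-catenin mutations, had 297, 274, 300 and 364 CPM in EDN1 overexpression 1 to 4, against 264, 388, 285 and 377 CPM in mock 1 to 4. All EDN1 overexpression libraries lay inside the mock range, and the log2 fold change was -0.09 (SE 0.17, 95% interval -0.47 to 0.29).

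GLUL, which encodes glutamine synthetase, had 91.8, 102, 65.7 and 90.7 CPM in EDN1 overexpression 1 to 4. The mock libraries 1 to 4 had 89.4, 101, 109 and 79.0 CPM. EDN1 3 was below the mock range and the other EDN1 overexpression libraries inside it. The log2 fold change was -0.11 (SE 0.17, 95% interval -0.49 to 0.27).

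LEF1, which encodes a partner of beta-catenin on DNA and is itself a target in several tissues, was at the limit of detection. It had 6, 3, 7 and 6 counts in EDN1 overexpression 1 to 4, against 4, 0, 0 and 5 counts in mock 1 to 4. The groups overlapped, and EDN1 2 lay below mock 4 in CPM (0.340 against 0.346). A count of 0 allows up to 3 counts, or 0.371 CPM in mock 2 and 0.348 CPM in mock 3, for counting error only. LEF1 failed the filter, and without a filter edgeR gave 1.42 on the log2 scale (SE 0.76, 95% interval from -0.19 to 3.04, adjusted p = 0.933, unadjusted p = 0.0803) that rests on 22 counts in EDN1 overexpression and 9 in mock. LEF1-AS1, an antisense gene, had 0 counts in every library, and ZNRF3-AS1 at most 3.

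**Figure D2:**
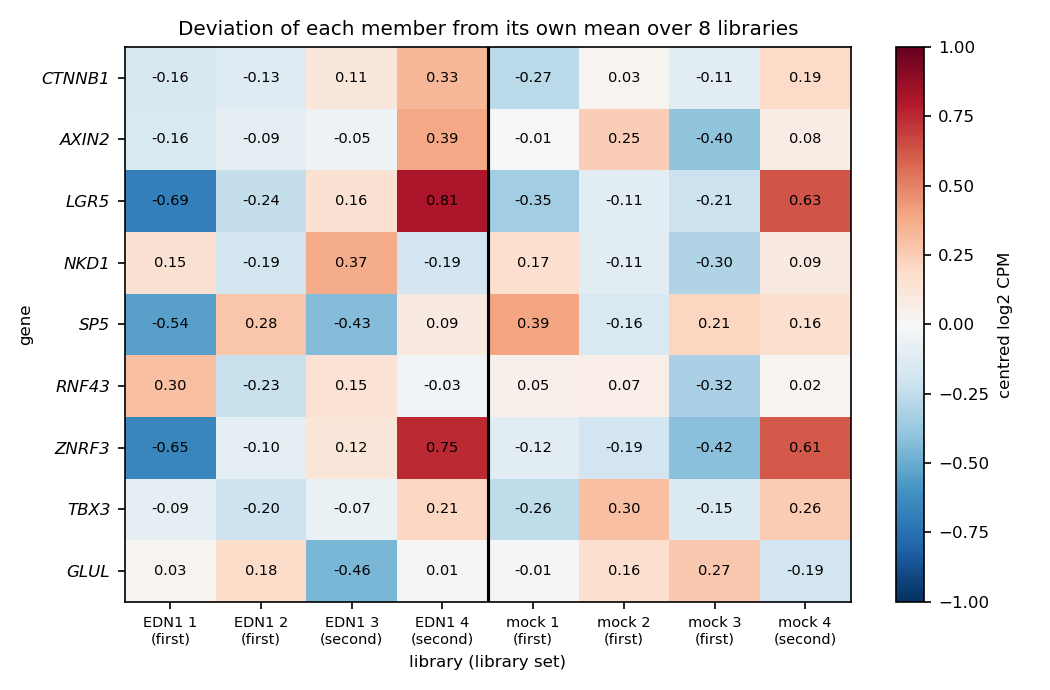
Log2 CPM of each tested member (rows) in each library (columns, EDN1 overexpression left of the line and mock right of it), centred on that gene's mean over the 8 libraries, with red above and blue below the mean. LGR5 and ZNRF3 share the lowest value in EDN1 1 (-0.69 and -0.65) and the highest in EDN1 4 (0.81 and 0.75), while SP5 is lowest in EDN1 1 and EDN1 3 (-0.54 and -0.43).

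The library sets separated some members where the groups did not. LGR5 averaged 21.3 CPM in the second set (3 libraries) and 11.6 CPM in the first (5 libraries), a log2 difference of 0.93 (SE 0.19) with the group as a term. ZNRF3 averaged 235 CPM in the second set and 135 CPM in the first, a difference of 0.83 (SE 0.18), and CTNNB1 1061 and 837 CPM in the second and first sets, a difference of 0.34 (SE 0.13). These are the 3 of 9 members whose sets did not overlap, all higher in the second set, where 9.83% of all tested genes were higher without overlap and 23.2% did not overlap in either direction. GLUL leaned the other way, at 78.4 CPM in the second set and 98.7 CPM in the first, with overlap. RNF43 averaged 69.0 and 66.3 CPM in the second and first sets, a difference of 0.03 (SE 0.16). The sets were formed from counts of these libraries, so these differences are descriptions and have no test.

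The second set holds 2 EDN1 overexpression libraries and 1 mock library, so its level enters the comparison of the groups. With the library set as a term the log2 fold change of LGR5 was -0.19 (SE 0.19) and that of ZNRF3 -0.12 (SE 0.18), against 0.06 and 0.09 without it. Within the first and second sets LGR5 had log2 fold changes of -0.23 and -0.12 and ZNRF3 of -0.11 and -0.15. CTNNB1 had -0.01 (SE 0.12) with the set as a term, and -0.03 and 0.03 within the first and second sets, and AXIN2 had -0.02 (SE 0.17), with -0.10 and 0.10 within them. For SP5 the values were -0.27 (SE 0.21) with the term and -0.24 and -0.31 within the first and second sets. Within the first and second sets the values were 0.06 and 0.02 for NKD1, 0.12 and 0.03 for RNF43, -0.13 and -0.19 for TBX3, and -0.04 and -0.03 for GLUL. None of the 9 was called in any of these fits, and the second set has a lone mock library, which is assumed to vary like the EDN1 overexpression libraries.

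**Figure D3:**
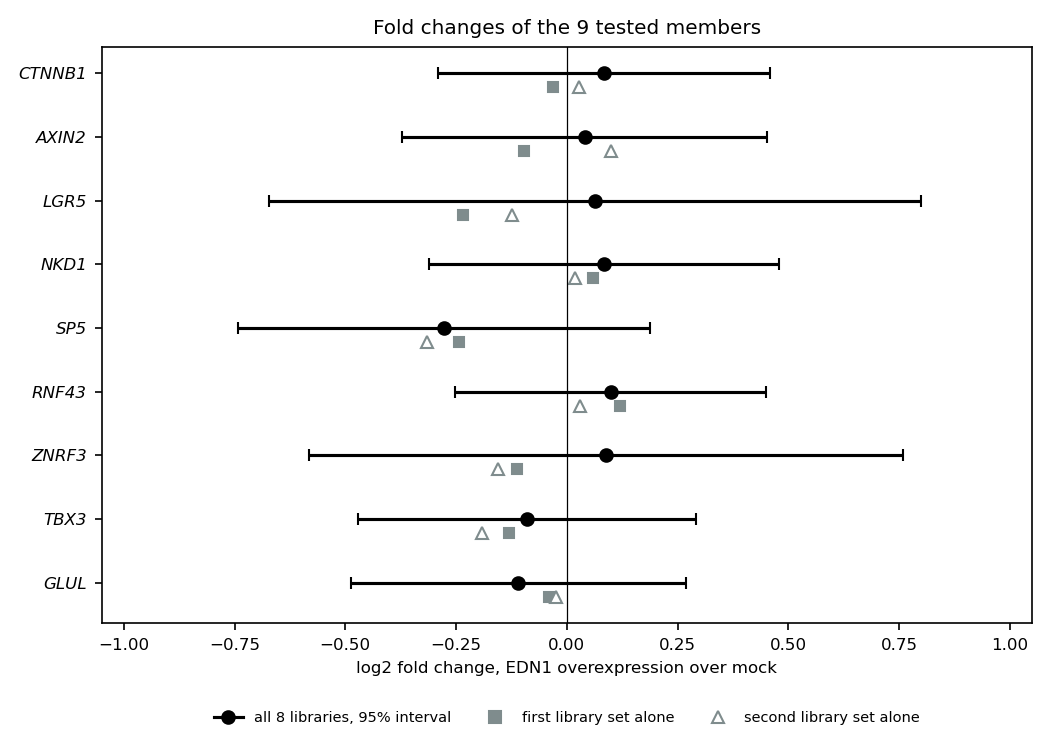
Log2 fold change (horizontal axis, EDN1 overexpression over mock) of each tested member over all 8 libraries with its 95% interval (black), and within the first (grey squares) and second library set (open triangles). Every interval spans 0, and both set values of LGR5 and ZNRF3 lie left of 0 although their values over all libraries are 0.06 and 0.09.

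Levels of different genes were compared as CPM per kilobase of the length in the deposited table. On that scale CTNNB1 (228 ± 32.7) and SP5 (219 ± 48.4, SD over the 8 libraries) came first and their ranges overlapped. TBX3 (66.6 ± 10.4) and NKD1 (55.4 ± 8.99) followed, again with overlapping ranges, and then ZNRF3 (25.5 ± 8.94), apart from both neighbours. RNF43 (12.0 ± 1.62), GLUL (10.6 ± 1.62) and AXIN2 (9.42 ± 1.61) each overlapped the next in this order. LGR5 (3.69 ± 1.40) and LEF1 (0.0846 ± 0.0616) came last, each apart from the gene before it. The kit reads tags near the end of the transcript, so a count need not grow with length, and in plain CPM NKD1 stood before SP5 and TBX3, and GLUL before RNF43. Some overlaps and gaps also depended on the scale. In plain CPM, CTNNB1 (759 to 1152) lay wholly above SP5 (286 to 547), and ZNRF3 (105 to 276) overlapped GLUL (65.7 to 109).

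The gene whose profile over the 8 libraries was nearest to that of AXIN2 was CES1, with a root mean square difference of 0.07 in centred log2 CPM, followed by SEC62 (0.08) and DYM (0.09), of 8696 genes with at least 10 CPM. The median of those genes was 0.34. CES1, SEC62 and DYM were picked as the nearest, so their place below that median follows from the choice. Whether they share regulation with AXIN2 was not tested.

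The rest of the pathway was described with 108 other genes in lists by role, of which 59 passed the filter. None of the 59 was called in either direction, where 0.00795% of all tested genes were called higher and 0.00% lower. Of these 59, 31 had positive and 28 negative log2 fold changes with a median of 0.02. The adjusted p of each was 1 after rounding, and 1 of them (FZD4) had an unadjusted p under 0.05 by edgeR, against 2 by DESeq2 and 2 by limma voom.

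Ligand genes were hardly detected. Of 24 Wnt, Norrin and R-spondin genes, 20 failed the filter and 7 of these had no count in any library. Their summed level was 14.0 to 19.8 CPM in EDN1 overexpression and 12.8 to 19.7 CPM in mock. WNT3 averaged 5.43 ± 2.22 CPM in EDN1 overexpression and 6.05 ± 3.13 CPM in mock (SD, n = 4 each), RSPO1 3.88 ± 1.19 and 3.54 ± 2.00 CPM, and WNT7B 3.88 ± 1.64 and 2.92 ± 1.64 CPM. WLS, which carries Wnt proteins to the cell surface, had at most 2 counts in any library, while PORCN, which attaches their lipid, averaged 15.7 ± 3.18 CPM in EDN1 overexpression and 13.7 ± 2.25 CPM in mock.

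Of 17 receptor and co-receptor genes 11 were tested. FZD4, a Frizzled receptor gene, had 44.7, 37.8, 50.5 and 42.4 CPM in EDN1 overexpression 1 to 4, against 29.9, 33.4, 30.5 and 32.6 CPM in mock 1 to 4. Every EDN1 overexpression library lay above every mock library. FZD4 had a log2 fold change of 0.47 (SE 0.14, 95% interval from 0.16 to 0.79), and within the sets it had 0.40 (first) and 0.50 (second). Its unadjusted p by the edgeR test was 0.00681, which did not pass the adjustment over all genes. FZD5, another receptor of the family, averaged 130 ± 24.4 CPM in EDN1 overexpression and 159 ± 10.8 CPM in mock (log2 fold change -0.29, SE 0.16, with -0.32 and -0.30 in the first and second sets). RYK, a Wnt-binding receptor gene, averaged 65.6 ± 22.1 CPM in EDN1 overexpression and 55.9 ± 18.9 CPM in mock, with a log2 difference of 0.84 between the second and first sets and a fold change of 0.02 on that scale with the set as a term.

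Of 16 genes for secreted or surface inhibitors 5 were tested. NOTUM, which encodes an enzyme that strips the lipid from Wnt proteins and is a target gene itself, had 97.2, 176, 58.3 and 183 CPM in EDN1 overexpression 1 to 4. It had 158, 186, 193 and 131 CPM in mock 1 to 4. The log2 fold change was -0.38 (SE 0.32), with -0.39 and -0.13 in the first and second sets. EDN1 1 and EDN1 3 lay below every mock library, and EDN1 2 and EDN1 4 did not, in 3 of the 59 pathway genes (FZD6, NOTUM and TLE3), and they lay above in 2 (FZD2 and DVL2), beside 5.51% and 5.43% of all tested genes. DKK1, which encodes a blocker of the LRP co-receptors, averaged 120 ± 29.1 CPM in EDN1 overexpression and 94.9 ± 20.8 CPM in mock (log2 fold change 0.34, SE 0.21), and had 0.46 (SE 0.15) with the library set as a term and 0.47 and 0.44 in the first and second sets. KREMEN2, a DKK receptor gene, averaged 6.23 ± 1.71 and 5.38 ± 1.32 CPM in EDN1 overexpression and mock. SFRP5 averaged 6.12 ± 2.53 CPM in EDN1 overexpression and 3.71 ± 0.812 CPM in mock. Its log2 fold change, 0.72 (SE 0.34, 95% interval from -0.02 to 1.47), was the highest of the 59. It was 0.96 and 0.44 in the first and second sets, and the unadjusted p by the edgeR test was 0.0558.

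All 14 genes of Dishevelled and the destruction complex were tested, with 7 positive and 7 negative log2 fold changes between -0.20 and 0.26. The kinase gene CSNK1A1 averaged 162 ± 36.1 CPM in EDN1 overexpression and 177 ± 58.4 CPM in mock, and the Dishevelled genes DVL1 65.7 ± 18.6 and 75.3 ± 15.9 CPM and DVL3 58.4 ± 7.17 and 56.7 ± 7.47 CPM in EDN1 overexpression and mock.

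Of 13 genes for TCF factors, cofactors and repressors 11 were tested. TCF7 averaged 158 ± 31.6 CPM in EDN1 overexpression and 165 ± 18.5 CPM in mock (log2 fold change -0.06, SE 0.17). Per kilobase, TCF7L2 (22.3 ± 6.37) and TCF7 (19.3 ± 2.90) had overlapping ranges over the 8 libraries, TCF7L1 stood at 1.09 ± 0.421, and LEF1 was lowest of these factors. In plain CPM TCF7 came first, at a mean of 162 CPM over the 8 libraries, against 98.9 CPM for TCF7L2. JUP, which encodes the beta-catenin relative plakoglobin, had 178, 158, 153 and 169 CPM in EDN1 overexpression 1 to 4, against 146, 152, 118 and 132 CPM in mock 1 to 4. The groups did not overlap, and the log2 fold change was 0.26 (SE 0.14, 95% interval from -0.04 to 0.56, unadjusted p = 0.0783 by the edgeR test), with 0.28 and 0.27 in the first and second sets. FZD4 and JUP were the 2 of 59 pathway genes with groups that did not overlap, both with EDN1 overexpression above mock, beside 1.38% of all tested genes in that direction. CTNNBIP1, an inhibitor of the bond between beta-catenin and TCF, averaged 129 ± 21.2 CPM in EDN1 overexpression and 119 ± 33.9 CPM in mock.

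Of 12 other targets 7 were tested. MYC averaged 41.5 ± 15.6 CPM in EDN1 overexpression and 59.1 ± 6.40 CPM in mock. Its log2 fold change, -0.51 (SE 0.25), was the lowest of the 59 pathway genes, with -0.51 and -0.56 in the first and second sets. In 3 of the 4 EDN1 overexpression libraries MYC lay below every mock library, and its unadjusted p by the edgeR test was 0.0648. CCND1, the cyclin D1 gene, averaged 617 ± 97.4 CPM in EDN1 overexpression and 554 ± 88.1 CPM in mock (log2 fold change 0.15, SE 0.17), and JUN, an AP-1 factor gene, 247 ± 42.2 and 316 ± 89.2 CPM (log2 fold change -0.36, SE 0.22). BMP4, a TGF-beta family ligand gene, averaged 170 ± 109 CPM in EDN1 overexpression and 192 ± 104 CPM in mock (log2 fold change -0.17, SE 0.52), with a log2 difference of -1.78 between the second and first library sets. With the set as a term its fold change turned to 0.20 on the log2 scale (SE 0.21), and it was 0.16 and 0.26 in the first and second sets. With that term the sign turned in 4 of the 59 genes: BMP4, RGN, BTRC and TLE1.

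Of 10 genes of the pericentral liver program 6 were tested, with log2 fold changes from -0.07 to 0.26. RGN, a calcium-binding protein gene, averaged 66.4 ± 6.70 CPM in EDN1 overexpression and 67.7 ± 5.29 CPM in mock, and OAT, an ornithine aminotransferase gene, 56.8 ± 7.83 and 56.0 ± 3.87 CPM. SLC1A2, a glutamate transporter gene, averaged 26.4 ± 17.3 CPM in EDN1 overexpression and 27.7 ± 11.0 CPM in mock. The classical pericentral genes CYP2E1 and CYP1A2 had at most 4 and 5 counts in any library, although GLUL was read at 749 counts or more in each.

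**Figure D4:**
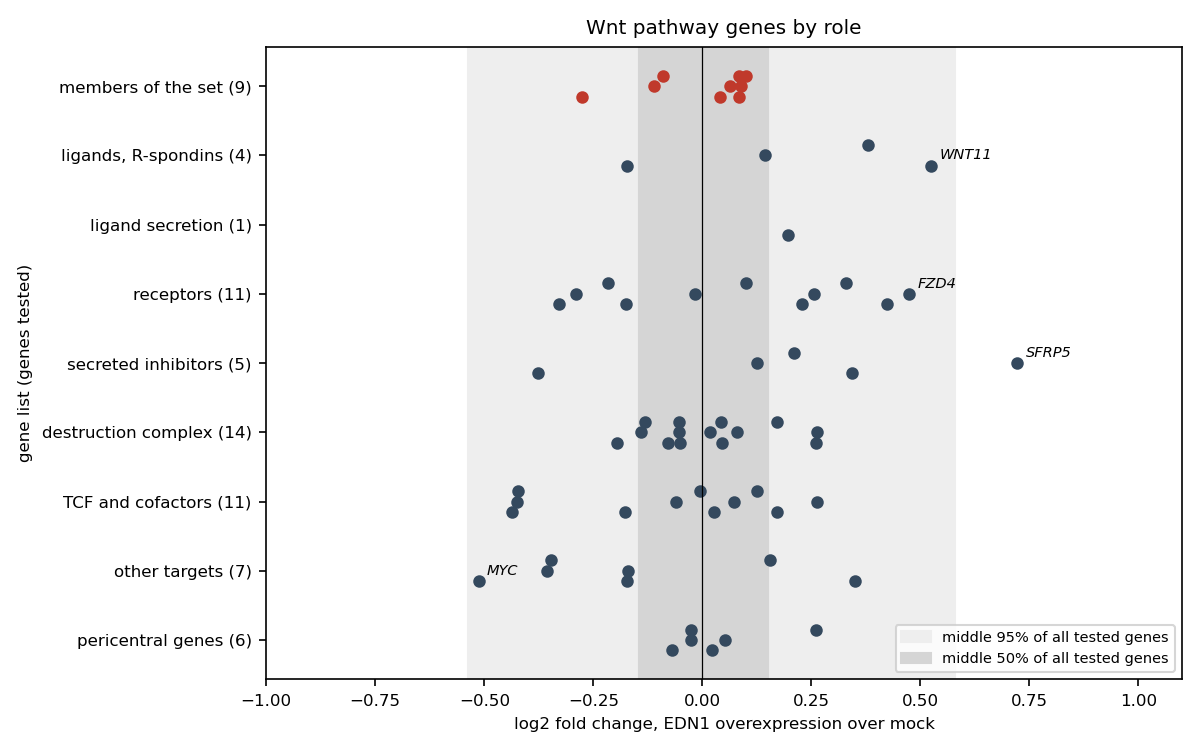
Log2 fold change (horizontal axis, EDN1 overexpression over mock) of the 9 tested members (red) and 59 other tested pathway genes (dark blue), 1 point for each gene, in rows by role with the number tested. Shaded bands hold the middle 50% and 95% of all 12577 tested genes, and the members lie between -0.28 and 0.10. Genes past 0.45 in either direction are named.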

How the data were processed

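Libraries of HepG2 RNA were made with the Lexogen QuantSeq kit (per the labels). The authors deposited raw read counts per gene for 8 libraries, with a gene length. Per the submitters' processing notes, Bowtie2, edgeR and build hg19 were used. Their versions, the read counter and whether it used strand are not given in the sources. Groups and replicate numbers came from the titles.

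The 25737 rows were summed by symbol (MARCH1 and MARCH2 excepted) to 24462 genes. Genes were filtered with filterByExpr (minimum count 10), leaving 12577, scaled by TMM and tested by the quasi-likelihood F-test of edgeR 4.0.16 in R 4.3.3, without covariates. P-values were adjusted over all tested genes (Benjamini-Hochberg, threshold 0.05). The procedure was run on simulated counts drawn without library sets, so that run does not cover their effect. Standard errors were computed from the log2 fold change and F. No library was a copy of another, since chi-square per degree of freedom between pairs was 6.49 to 92.7.

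Members, lists and library sets were chosen with earlier results of these data known. Named were all members, the 3 genes of each list with the highest mean CPM that passed the filter (fewer where fewer did), any pathway gene passing the test, EDN1, and the 3 genes nearest to AXIN2 (log2 CPM with a prior count of 2). Other genes named were chosen after their values were seen. Alternatives were other scalings and filters, DESeq2 1.42.0, limma 3.58.1 voom, the replicate number as a block, each library left out, the library sets and rows as deposited.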

Additional observations from a re-analysis of the deposited data

Results flagged for a closer look

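Of 22 groups of 4 libraries (the 10 members and EDN1, each in EDN1 overexpression and in mock), 2 held a library far from the other members of its group by Dixon's criterion, which chance alone meets in about 1 in 20 groups. AXIN2 had 51.6 CPM in EDN1 4, against 35.3 to 37.9 CPM in the other EDN1 overexpression libraries. RNF43 had 53.3 CPM in mock 3, against 67.7 to 69.9 CPM in the other mock libraries.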

How the results depend on the processing

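No member and no other pathway gene was called in any of the 20 alternatives. EDN1 remained called in each, with log2 fold changes of 7.65 to 8.23 with 1 library left out, 7.28 in the first library set alone and 8.43 in the second. DESeq2 called 3 genes over the whole table, against 1 by edgeR. Signs of small fold changes were not stable. Without EDN1 4 (EDN1 replicate 4) the log2 fold changes turned to -0.023 for CTNNB1, -0.099 for AXIN2, -0.27 for LGR5 and -0.20 for ZNRF3, and without EDN1 3 to -0.038 for NKD1 and 0.0067 for GLUL. Leaving out 1 library at a time gave -0.023 to 0.17 for CTNNB1, -0.099 to 0.13 for AXIN2, -0.27 to 0.34 for LGR5, -0.038 to 0.16 for NKD1, -0.20 to 0.35 for ZNRF3 and -0.19 to 0.0067 for GLUL. With the library set as a term, values turned to -0.0074 for CTNNB1, -0.022 for AXIN2, -0.19 for LGR5 and -0.12 for ZNRF3. In the first set alone they were -0.032 for CTNNB1, -0.096 for AXIN2, -0.23 for LGR5 and -0.11 for ZNRF3. In the second set alone LGR5 had -0.12 and ZNRF3 -0.15, and with limma voom LGR5 had -0.022. The sign did not turn for SP5, RNF43 or TBX3 in any of the 20, but the values moved with 1 library left out: SP5 from -0.43 (without EDN1 2) to -0.16 (without EDN1 1), RNF43 from 0.0099 (without EDN1 1) to 0.18 (without EDN1 2) and TBX3 from -0.18 (without mock 1) to -7e-04 (without mock 2). No scaling moved the median of all genes by more than 0.04.

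The replicate numbers are not known to pair the libraries, and the check cannot decide it, because the correlations also differed by library set. With mock 4, EDN1 3 and EDN1 4 had 0.52 and 0.53, and EDN1 1 and EDN1 2 had -0.63 and -0.65. Same-numbered libraries had correlations of 0.48, 0.15, -0.15 and 0.53 in their deviations from the group means. EDN1 1 was nearest to mock 1 and EDN1 4 to mock 4, while EDN1 2 was nearest to mock 3 (0.43) and EDN1 3 to mock 4. With the replicate number as a block 1 gene was called, 0 of the members and 0 of the other pathway genes, and EDN1 was that gene.

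At this depth the LEF1 comparison, on at most 7 counts in a library, was imprecise. For LGR5 changes up to 1.74-fold lie within the 95% interval, with a coefficient of variation of 37.9% against 7.84% from counting error. For ZNRF3, with at least 1059 counts in each library, changes up to 1.69-fold lie within it.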
